A study of Homo sapiens with 24 samples.

Results

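The 36 genes described here are the sugar-burning pathway of the cell and the genes that the hypoxia-inducible factors (HIF) are known to switch on, taken from a list of gene names out of 48162 gene rows in each expression table. They fall into 16 glycolytic enzymes, 3 sugar and lactate transporters, 3 regulators of flux through the pathway, 13 other HIF targets, and HIF1A itself. Every name matched 1 row, so no choice between rows was needed. RNA was sequenced from 24 libraries, 3 in each of 8 groups, to compare what vesicles shed by pancreatic cancer cells do to normal pancreas cells. Both recipient lines are immortalised: hTERT-HPNE (HPNE) carries a telomerase transgene, and HPDE-H6c7 (HPDE) is a duct epithelial line. Each line was kept for 24 h in 1 of 4 ways: fresh serum-free medium (untreated), extracellular vesicles (EV in the plots) of PANC-1 cells, extracellular vesicles of PPCL-68 cells, or spent medium from which vesicles had been taken (residual medium), which served as the negative control. Vesicles were given at 1e10 per well. PANC-1 is a pancreatic carcinoma line, and PPCL-68 is named only as a source of vesicles. All cells grew in keratinocyte serum-free medium, and each line is a single model of its cell type, so a difference between the lines is a difference between these cultures.

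Glycolysis splits glucose into pyruvate in the cytosol, and lactate dehydrogenase turns pyruvate into lactate when it is not burned in mitochondria. In normal oxygen, prolyl hydroxylases mark HIF-alpha proteins for destruction; when oxygen is short, or when the hydroxylases are inhibited, HIF-alpha pairs with ARNT, binds a short DNA element and raises the genes of glycolysis together with genes for blood vessel signals, collagen maturation, acid balance and the removal of mitochondria. HIF1A messenger RNA is not a measure of HIF activity, since the protein is controlled mainly by its breakdown. Pancreatic tumours are known for poor blood supply and strong glycolysis.

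Levels are FPKM, which are reads scaled to library depth and gene length, and can therefore be compared between genes. Differences are on the scale log2(FPKM + 1), which understates the change of low genes, and were tested with limma across all genes of a line whose mean was at least 1 FPKM. A gene is said to have risen or fallen where the Benjamini-Hochberg adjusted p of limma was below 0.05. The design text calls the 3 libraries of a group biological replicates, and p-values measure only the spread between them. These are bulk RNA measurements, in which a lower level in every cell cannot be told apart from fewer cells of a kind. GAPDH, PGK1, ALDOA, ENO1, TPI1, PGAM1, LDHA, PKM and HK2 have processed pseudogenes or close copies, and their absolute levels are uncertain where reads could be shared. HIF1A overlaps antisense genes, and the library kit kept no strand.

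Libraries held 29874928 to 46490312 reads on genes in HPNE and 29209142 to 42206773 in HPDE. The 10 most abundant genes took 14.5% to 18.3% of reads in HPNE and 4.33% to 5.21% in HPDE. In HPNE, 1 library of each group stood apart from the other 2: untreated replicate 3, residual medium replicate 3, PANC-1 vesicle replicate 1 and PPCL-68 vesicle replicate 1, each 2.05 to 3.31 times as far from its group as the closest pair were from each other. In HPDE that ratio was 1.08 to 1.24. Results in HPNE that turn on those 4 libraries are given with and without them; leaving them out leaves 2 libraries a group and narrows the spread by construction. The labels were checked against marker genes. HPDE held the epithelial markers EPCAM (148 to 192 FPKM) and KRT19. HPNE had at most 12 EPCAM reads in a library, and its fibronectin gene FN1 stood at 5747 to 8130.0 FPKM, so the HPNE libraries carried mesenchymal rather than duct markers. TERT, the telomerase gene, was at 114 to 443 FPKM in HPNE and 1.099 to 2.998 in HPDE.

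HIF binds DNA at a short core, and the promoters of the genes on which the results turn are shown with that core in capitals. Letters searched were ACGTG and GCGTG on both strands (read as CACGT and CACGC on the other strand), and CACGTG counts as a match on both strands. The stretches are the 250 bases before the first listed start of each gene in RefSeq (GRCh38.p14), written 5′ to 3′ along the gene. LDHA and PGK1 are shown because they rose with residual medium and fell with vesicles in both lines, ENO1 and ENO2 because the isozymes differ, BNIP3 as a target outside glycolysis, and SLC2A1 because it rose with vesicles in HPDE and its window holds no match.
LDHA, chr11:18394313-18394562, plus strand: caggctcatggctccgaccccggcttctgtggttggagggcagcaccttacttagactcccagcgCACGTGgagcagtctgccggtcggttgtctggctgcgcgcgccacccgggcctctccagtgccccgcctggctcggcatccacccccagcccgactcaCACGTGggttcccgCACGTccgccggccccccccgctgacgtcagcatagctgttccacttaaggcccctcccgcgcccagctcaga
PGK1, chrX:78103998-78104247, plus strand: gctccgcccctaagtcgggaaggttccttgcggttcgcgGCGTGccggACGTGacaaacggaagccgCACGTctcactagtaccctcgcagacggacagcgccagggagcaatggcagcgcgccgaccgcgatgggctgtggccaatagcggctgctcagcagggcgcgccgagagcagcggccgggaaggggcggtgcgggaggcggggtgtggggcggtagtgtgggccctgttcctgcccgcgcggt
ENO1, chr1:8878687-8878936, minus strand: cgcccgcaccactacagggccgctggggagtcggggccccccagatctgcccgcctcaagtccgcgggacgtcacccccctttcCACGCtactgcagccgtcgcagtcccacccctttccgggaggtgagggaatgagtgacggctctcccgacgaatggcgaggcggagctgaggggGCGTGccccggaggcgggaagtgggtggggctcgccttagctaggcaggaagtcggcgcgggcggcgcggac
ENO2, chr12:6914330-6914579, plus strand: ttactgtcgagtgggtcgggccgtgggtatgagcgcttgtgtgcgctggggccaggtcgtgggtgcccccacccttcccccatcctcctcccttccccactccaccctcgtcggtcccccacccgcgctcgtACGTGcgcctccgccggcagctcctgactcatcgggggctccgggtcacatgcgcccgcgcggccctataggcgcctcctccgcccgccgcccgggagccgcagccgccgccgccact
BNIP3, chr10:131981924-131982173, minus strand: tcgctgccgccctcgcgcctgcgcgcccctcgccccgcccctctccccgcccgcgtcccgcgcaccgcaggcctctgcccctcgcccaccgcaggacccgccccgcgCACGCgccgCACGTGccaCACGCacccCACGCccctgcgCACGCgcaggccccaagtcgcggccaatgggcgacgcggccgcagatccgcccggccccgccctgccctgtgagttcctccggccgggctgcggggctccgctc
SLC2A1, chr1:42958869-42959118, minus strand: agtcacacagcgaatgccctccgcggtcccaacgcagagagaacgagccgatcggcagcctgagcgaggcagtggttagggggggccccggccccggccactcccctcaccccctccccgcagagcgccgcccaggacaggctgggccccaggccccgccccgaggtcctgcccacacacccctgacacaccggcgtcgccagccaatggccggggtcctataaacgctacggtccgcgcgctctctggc

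The LDHA window held 5 ACGTG matches in 3 separate stretches, which began 185, 184, 87, 86 and 73 bases before the start. PGK1 held 2 ACGTG and 1 GCGTG, at 211, 202 and 183 bases. ENO2 held 1 ACGTG at 118 bases, and its isozyme ENO1 held 2 GCGTG, at 166 and 72 bases, and no ACGTG. BNIP3 held 2 ACGTG and 4 GCGTG within a short run, from 143 to 104 bases before the start. A window was found for 33 of the 36 genes. ACGTG was present in 14 of those 33 (42.42%), against 18.64% of 27305 genes, and GCGTG in 12 of 33 (36.36%), against 31.92%. Either core was present in 10 of 16 glycolytic enzymes (62.5%) and 9 of 11 other HIF targets (81.82%), against 43.07% of all genes. Among the 12 members with the largest rises in residual medium in HPNE (log2 difference of at least 1) it was present in 6 (50%). A match is a run of letters and no measurement of binding, and a window without one says only that these letters are not in those 250 bases.

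In untreated cells the 2 lines divided the tested members by class: HPDE had more of most glycolytic enzymes and HPNE more of most other HIF targets. Of 34 genes tested, 14 were higher and 15 lower in HPDE than in HPNE, where 83.8% of 12377 genes differed (56.0% higher, 27.7% lower). Among the 16 glycolytic enzymes 13 were higher in HPDE and 2 lower (PFKL and ENO2), with a median log2 difference of 0.72 against 0.38 over all genes. Among 11 other HIF targets none was higher and 9 were lower, with a median of -1.17. CA9 and EGLN3, also in this class, were below the filter and not tested, and their low values were higher in HPDE. Untreated CA9 had 0.901, 0.849 and 0.785 FPKM in HPDE against 0.14, 0 and 0 in HPNE. Untreated EGLN3 had 1.501, 1.39 and 1.36 FPKM against 0, 0 and 0. The split of the tested members depends in part on scaling: with size factors in place of the deposited scale the counts were 10 higher and 19 lower, and the median of all genes was 0.07. The most abundant member in untreated HPNE was GAPDH, which oxidises glyceraldehyde phosphate, with 1009.9, 1017 and 1003 FPKM in the 3 libraries. In untreated HPDE ENO1, the common enolase, led with 1413, 1415 and 1399.9 FPKM, against 496, 478 and 472 in HPNE. PGK1, which makes ATP in the pathway, was 77.3 ± 1.88 FPKM in HPNE and 93.3 ± 2.42 in HPDE (SD, n = 3). ADM, which encodes the vessel-dilating peptide adrenomedullin, differed most in the other direction, with 83.7, 85.6 and 85.5 FPKM in HPNE and 6.72, 8.37 and 8.17 in HPDE (log2 difference -3.30, SE 0.22, adjusted p 2.01e-11, limma). SLC2A3, the high-affinity glucose transporter of neurons and some tumours, had 18.3 ± 2.65 FPKM in HPNE and 1.92 ± 0.182 in HPDE. The summed enzymes made up 1.14% ± 0.01395 of all FPKM in HPNE and 1.795% ± 0.00886 in HPDE, and the summed other HIF targets 0.1499% ± 0.0144 and 0.0472% ± 0.00202.

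Residual medium, the negative control of the study, raised glycolysis genes in HPNE. Against untreated HPNE cells, 24 of 34 tested members rose and 1 fell, where 43.9% of 11503 genes changed (18.7% higher, 25.2% lower). Without the 4 libraries that stand apart, 25 rose and 7 fell, when 71.7% of genes were called; those that fell were PFKM, PFKL, HK2, NDRG1, BNIP3L, BHLHE40 and KDM3A. The median member differed by 0.69 on the log2 scale and the median gene by -0.05. Among the glycolytic enzymes 12 of 16 rose, and PFKM, the muscle-type phosphofructokinase, was the 1 that fell. Their summed share of FPKM went from 1.14% ± 0.01395 (SD, n = 3) to 2.02% ± 0.0473, the highest of the 8 groups.

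LDHA (ENSG00000134333; hg19 chromosome 11, 18415935 to 18429972), which makes lactate from pyruvate, had 339, 334 and 289 FPKM in untreated HPNE and 800.2, 778 and 787 in residual medium, a 2.46-fold difference (log2 difference 1.30, SE 0.19, adjusted p 0.00056, limma). All 3 residual medium libraries were above all 3 untreated ones, and the residual medium libraries lay close together. PGK1 (ENSG00000102144; chromosome X, 77320685 to 77384793) had 77.9, 75.2 and 78.8 and then 204, 199 and 218 FPKM (log2 difference 1.41, SE 0.09, adjusted p 3.07e-06). ENO2, the enolase typical of neurons, rose from 22.1, 21.2 and 14.9 to 54.00, 57.6 and 52.5 FPKM (log2 difference 1.46, SE 0.27, adjusted p 0.00199). In both genes the groups were far apart beside the spread within each. ENO1 rose from 482 ± 12.6 to 1129.5 ± 22.2 FPKM (log2 difference 1.23, SE 0.10, adjusted p 2.64e-05). TPI1, which interconverts the triose phosphates, rose from 323, 324 and 322 to 686, 663 and 680.0 FPKM, and PGAM1, phosphoglycerate mutase, from 129, 126 and 131 to 284, 276 and 241. Their log2 differences were 1.06 and 1.04. The rises of GAPDH and PKM were smaller: GAPDH rose by 0.54 and PKM, pyruvate kinase, by 0.53 on the log2 scale. At the upper end PFKP, the platelet-type phosphofructokinase, went from 46.8, 47.5 and 56.9 to 149, 147 and 122 FPKM (log2 difference 1.45, SE 0.13, adjusted p 3.9e-05), while HK2, the inducible hexokinase, had 16.1, 15.3 and 13.7 FPKM untreated, 12.2, 12.4 and 13.9 with residual medium, and did not pass the test (adjusted p 0.155). HK1, the constitutive hexokinase, and GPI rose by 0.53 and 0.73. The call for PFKM (log2 difference -0.33, adjusted p 0.0224) was lost when any 1 of 5 libraries was left out (limma adjusted p 0.0517 to 0.0629) and with size factors. GAPDH was no longer called without the filter on low values (adjusted p 0.0761).

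**Figure D1:**
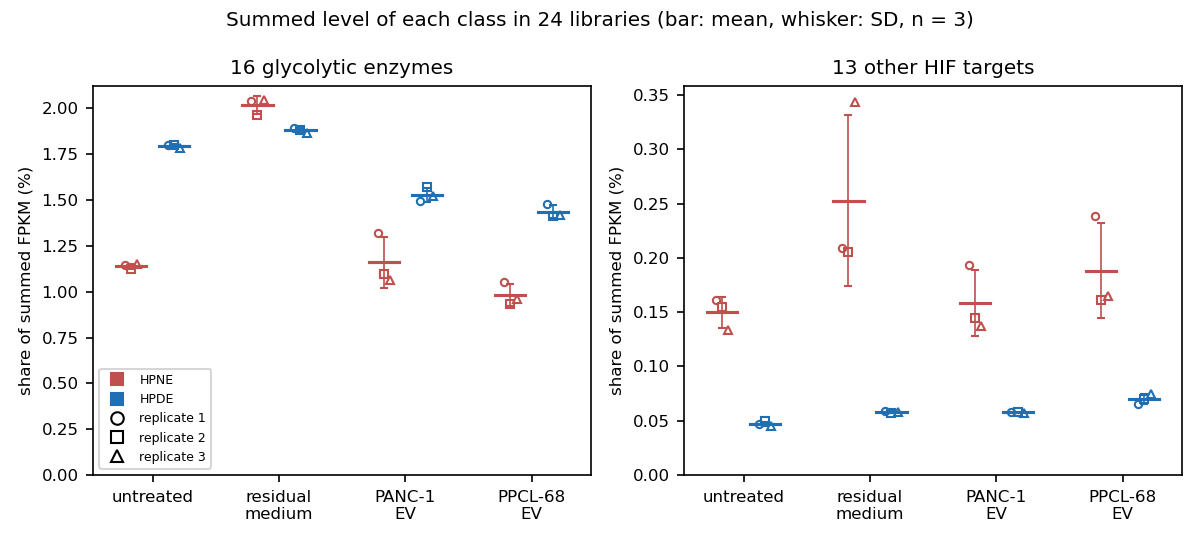
Summed FPKM of the 16 glycolytic enzymes (left) and of the 13 other HIF targets (right) as a percentage of all FPKM in a library, for the 4 treatments of HPNE (red) and HPDE (blue); each symbol is 1 library, the bar is the group mean and the whisker the SD of 3 libraries. The residual medium libraries of HPNE sit near 2.02% for the enzymes, above every other library, and the enzymes of HPDE are lower with either vesicle type (1.53% and 1.44%) than with residual medium (1.88%).

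With vesicles, glycolysis genes of HPNE were lower than with residual medium. With PANC-1 vesicles 1 member rose and 22 fell against residual medium (24.2% of all genes changed, 13.9% higher and 10.3% lower), and with PPCL-68 vesicles 1 rose and 24 fell (39.9%, 20.3% higher and 19.7% lower). Of the 16 glycolytic enzymes none rose and 13 fell with PANC-1 vesicles, and none rose and 14 fell with PPCL-68 vesicles, with medians of -0.75 and -1.17. Without the 4 libraries 3 members rose and 26 fell with PANC-1 vesicles (59.1% of genes called), and 5 rose and 26 fell with PPCL-68 vesicles (65.7%). Both comparisons rest on the same 3 residual medium libraries, which are also the ones that stood above untreated cells. LDHA was 369.6, 274 and 254 FPKM with PANC-1 vesicles and 349, 221 and 222 with PPCL-68 vesicles. Every vesicle library was below every residual medium library, and in both vesicle groups replicate 1, which stood apart over all genes, was the highest. The LDHA differences from residual medium were -1.41 (SE 0.19, adjusted p 0.000756) and -1.61 (adjusted p 0.000147), and without the 4 libraries that stand apart they were -1.58 and -1.83. PGK1 fell to 96.6, 89.2 and 83.99 FPKM with PANC-1 vesicles and to 76.8, 65.5 and 66.1 with PPCL-68 vesicles, log2 differences of -1.20 and -1.56 (adjusted p 4.59e-05 and 6.13e-06, limma). ENO2 had the lowest values relative to residual medium among the enzymes, with 25.3, 13.5 and 11.2 FPKM after PANC-1 vesicles and 17.6, 11.4 and 10.5 after PPCL-68 vesicles. Its differences were -1.74 and -2.01, or 0.305 and 0.241 of the residual medium mean. PGAM1 fell by 1.10 and 1.39 on the log2 scale, TPI1 by 0.99 and 1.21, and ENO1 by 1.00 and 0.92. PKM fell from 861, 806 and 701 FPKM to 546, 491 and 438 with PANC-1 vesicles and to 334, 319 and 345 with PPCL-68 vesicles, and the 3 groups did not overlap. HK2 and PFKM did not pass the test with either vesicle type. PFKL, the liver-type phosphofructokinase, fell with PPCL-68 vesicles (-1.22) and differed by -0.38 with PANC-1 vesicles (adjusted p 0.211). ALDOC, the brain-type aldolase, fell by 0.88 with PANC-1 vesicles (adjusted p 0.0453), a call lost when any 1 of 9 libraries was left out (adjusted p 0.0518 to 0.13). With PPCL-68 vesicles it fell by 1.65 (adjusted p 0.00135). GAPDH with PANC-1 vesicles was no longer called without the filter on low values (adjusted p 0.0862) or when the 6 libraries were fitted alone (adjusted p 0.0508).

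**Figure D2:**
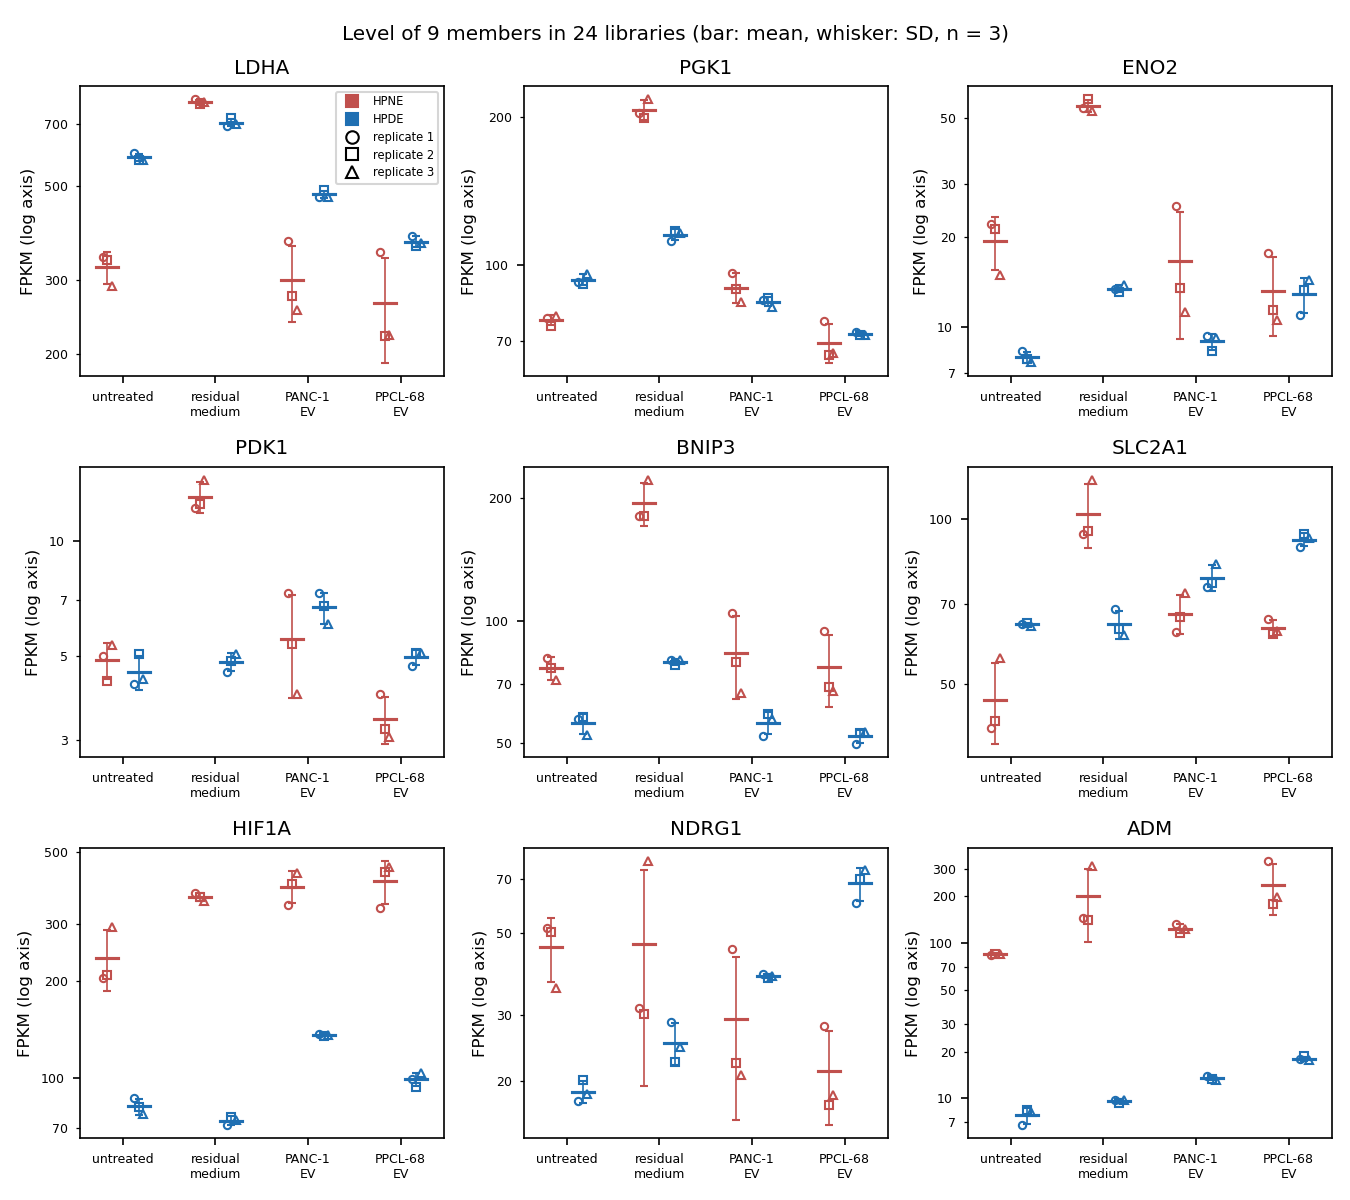
FPKM on a log axis of LDHA, PGK1, ENO2, PDK1, BNIP3, SLC2A1, HIF1A, NDRG1 and ADM in each of the 24 libraries, grouped by line and treatment, with 1 symbol a library. LDHA, PGK1, ENO2, PDK1 and BNIP3 peak in the residual medium libraries of HPNE, HIF1A does not, and NDRG1 and ADM rise with vesicles in HPDE.

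Against untreated HPNE cells PANC-1 vesicles gave 5 calls among 34 members and PPCL-68 vesicles 15, the latter near the share of all genes. With PANC-1 vesicles 5 members were higher and none lower (21.1% of all genes, 9.61% higher and 11.5% lower), and with PPCL-68 vesicles 7 were higher and 8 lower (42.5%, 18.7% higher and 23.8% lower). Among the enzymes PFKP alone was called with PANC-1 vesicles, with 79.9, 80.8 and 92.6 FPKM against 46.8, 47.5 and 56.9 (log2 difference 0.74, SE 0.13, adjusted p 0.00368, limma). It was also higher with PPCL-68 vesicles, at 75.2, 94.3 and 102 FPKM (log2 difference 0.83). No vesicle library of either kind overlapped the untreated libraries for this gene. LDHA differed from untreated by -0.12 and -0.31, and PGK1 by 0.21 and -0.16, none past the threshold. With PPCL-68 vesicles, PKM was lower than untreated (log2 difference -0.71, SE 0.12, adjusted p 0.000694), as were PFKL, ALDOC, HK1, ALDOA, GPI and PGAM1. PFKL had 55.6, 55.9 and 43.9 FPKM untreated and 25.3, 15.8 and 14.9 with PPCL-68 vesicles (log2 difference -1.46). No flux regulator and no other HIF target was called with PANC-1 vesicles by limma, and none had an unadjusted p below 0.05 or was called by voom on the recovered reads. There, 1 of 11 other HIF targets was higher and 7 lower without the 4 libraries that stand apart, and no flux regulator was called. These counts depended on the libraries used. Without the 4 that stand apart, 8 members were higher and 15 lower with PANC-1 vesicles, where 62.7% of genes were then called. With PPCL-68 vesicles 7 were then higher and 24 lower (69.6% of genes). Leaving out 1 library at a time gave 3 to 7 calls with PANC-1 vesicles (3 without untreated replicate 1 or 2, or without PANC-1 vesicle replicate 3) and 9 to 22 with PPCL-68 vesicles (9 without untreated replicate 2).

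In HPDE most glycolytic enzymes were lower with vesicles than with either control. Residual medium raised 13 of 35 tested members and lowered 1, against 20.0% of 12223 genes (9.93% higher, 10.1% lower), and 6 of 16 enzymes rose. ENO2 rose most of these, from 8.301, 7.803 and 7.65 to 13.4, 13.1 and 13.8 FPKM (log2 difference 0.69, SE 0.08, adjusted p 2.43e-05, limma). PGK1, PFKP, LDHA, PGAM1 and ALDOA rose by 0.30, 0.27, 0.27, 0.25 and 0.23, and the ALDOA call was lost without untreated replicate 1 (adjusted p 0.0653) or residual medium replicate 1 (0.0605). With PANC-1 vesicles 8 members rose and 20 fell against residual medium (63.3% of genes, 28.2% higher and 35.1% lower), and with PPCL-68 vesicles 10 rose and 17 fell (67.7%, 31.3% and 36.4%). The members called, 28 of 35 and 27 of 35, exceeded these shares by less than in HPNE, and as there both comparisons share the residual medium libraries. Of the 16 enzymes 1 rose and 13 fell with each vesicle type, with medians of -0.31 and -0.50 against -0.04 and -0.03 over all genes. LDHA had 693, 721 and 700.5 FPKM with residual medium, 471, 488 and 471 with PANC-1 vesicles and 381, 359.7 and 366 with PPCL-68 vesicles. The 3 groups did not overlap, and the differences from residual medium were -0.56 (SE 0.04, adjusted p 6.7e-08) and -0.93 (adjusted p 1.99e-10). Untreated HPDE libraries had 596, 576 and 576 FPKM, also above every vesicle library. PKM fell furthest with PPCL-68 vesicles, from 1143, 1061 and 1065 FPKM with residual medium to 632, 685 and 648 with PANC-1 vesicles and 492, 483 and 482 with PPCL-68 vesicles, log2 differences of -0.73 and -1.16 (adjusted p 1.49e-08 and 7.83e-11). PGAM1 fell by 0.74 and 0.88, and PGK1 by 0.45 and 0.66. TPI1 and ALDOA fell by 0.35 and 0.41 with PANC-1 vesicles and by 0.51 and 0.58 with PPCL-68 vesicles. HK2 was the enzyme that rose: 30.03, 33.2 and 31.8 FPKM with residual medium, 44.7, 39.6 and 43.99 with PANC-1 vesicles and 39.4, 39.8 and 43.6 with PPCL-68 vesicles (log2 differences 0.42 and 0.36, adjusted p 1.3e-05 and 4.32e-05). No vesicle library overlapped a control library. GAPDH fell with PANC-1 vesicles (-0.20) and had 1437, 1356 and 1273 FPKM with PPCL-68 vesicles against 1345, 1358 and 1364 with residual medium. ENO2 fell with PANC-1 vesicles (-0.54) and had 10.9, 13.3 and 14.3 FPKM with PPCL-68 vesicles, within the range around residual medium (adjusted p 0.465). The calls for PFKP with PANC-1 vesicles (-0.12) and PFKL with PPCL-68 vesicles (-0.13) were small and did not hold under size factors (adjusted p 0.0802 and 0.0998); PFKP also lost its call without PANC-1 vesicle replicate 1 (0.0666) and PFKL when any 1 of 8 libraries was left out (0.0513 to 0.199).

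Against untreated HPDE, 12 members were higher and 16 lower with PANC-1 vesicles (60.6% of genes, 26.3% higher and 34.4% lower), and 14 and 14 with PPCL-68 vesicles (66.3%, 30.1% and 36.1%). The enzymes were again mostly lower, 11 of 16 with PANC-1 vesicles and 12 of 16 with PPCL-68 vesicles, and those higher were HK2 and PFKP with PANC-1 vesicles and HK2 and ENO2 with PPCL-68 vesicles. With size factors the split with PANC-1 vesicles was 14 higher and 12 lower. Keratins moved with the enzymes in the same libraries. The summed duct markers EPCAM, KRT19, KRT7, KRT8, KRT18 and CDH1 took 0.798% to 0.865% of FPKM in untreated HPDE, 0.882% to 0.973% with residual medium, 0.466% to 0.529% with PANC-1 vesicles and 0.417% to 0.433% with PPCL-68 vesicles. KRT19 had mean levels of 955, 1048, 426 and 326 FPKM in those groups, whereas EPCAM had 149.8, 187, 171 and 181. Their part in the result was not tested. In HPNE the summed mesenchymal markers took 3.95% to 4.03% untreated, 2.902% to 4.07% with residual medium, 3.43% to 4.08% with PANC-1 vesicles and 2.75% to 3.51% with PPCL-68 vesicles. The untreated and PPCL-68 groups did not overlap, and the other pairs of groups did. COL1A1, a collagen gene, had means of 4115, 2423, 2769.7 and 1496 FPKM untreated and with residual medium, PANC-1 and PPCL-68 vesicles, and CDH2, N-cadherin, 8.78, 27.5, 19.9 and 48.1. TERT in HPNE was 114, 124 and 200.1 FPKM untreated and 443, 424 and 202 with residual medium. The part of these markers in the HPNE results was not tested. The acinar markers PRSS1 and CELA3A and the endocrine marker INS had no reads in any library, and leukocyte markers had at most 6.

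The isozymes that catalyse the same step shifted against each other. In HPDE, HK2 made up 34.4% of hexokinase FPKM (HK1 plus HK2) untreated, 34.8% with residual medium, 46.1% with PANC-1 vesicles and 49.5% with PPCL-68 vesicles. In HPNE that share was 26.3%, 17.6%, 25.9% and 29.9% in the same order. In HPNE only HK1 passed the test against residual medium, and in HPDE both genes did. PFKP made up 39.1% of phosphofructokinase in untreated HPNE, 68.1% with residual medium, 59.4% with PANC-1 vesicles and 67.6% with PPCL-68 vesicles. In HPDE it stayed between 45.98% and 50.4%. LDHB, the heart-type subunit and no member of the list, made up 47.3% of lactate dehydrogenase FPKM in untreated HPNE, 25.7% with residual medium, 45.3% with PANC-1 vesicles and 46.2% with PPCL-68 vesicles. These shares are means of 3 libraries and were not tested.

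All 3 transporters rose with residual medium in HPNE, where 18.7% of all genes rose. Against it SLC2A1 and SLC16A3 fell with both vesicle types there while SLC2A3 rose. Of all genes 13.9% rose and 10.3% fell with PANC-1 vesicles, and 20.3% and 19.7% with PPCL-68 vesicles. In HPDE no transporter fell against residual medium, where 35.1% and 36.4% of all genes fell. SLC2A1 (ENSG00000117394; chromosome 1, 43391052 to 43424530), the basal glucose transporter, had 41.7, 42.9 and 55.9 FPKM untreated and 93.8, 94.9 and 118 with residual medium (log2 difference 1.11, SE 0.12, adjusted p 0.000138, limma). It fell from there to 62.3, 66.2 and 73.3 FPKM with PANC-1 vesicles and 65.8, 61.8 and 62.4 with PPCL-68 vesicles, and stayed above untreated by 0.52 and 0.44 (adjusted p 0.0143 and 0.0152). All vesicle libraries lay between the untreated and the residual medium libraries. In HPDE SLC2A1 had 64.4, 64.6 and 63.8 FPKM untreated and 68.5, 62.9 and 61.4 with residual medium, and then rose to 75.2, 76.5 and 82.9 with PANC-1 vesicles and 88.8, 93.9 and 92.2 with PPCL-68 vesicles (log2 differences 0.28 and 0.51, adjusted p 0.000183 and 4.18e-07). SLC2A1 and LDHA thus went opposite ways in HPDE, with no overlap between vesicle and control libraries for either. SLC2A3 was higher in HPNE with every treatment than in untreated cells. It had 18.5, 15.5 and 20.8 FPKM untreated, 30.2, 31.8 and 37.8 with residual medium, 38.04, 50.1 and 51.99 with PANC-1 vesicles and 53.4, 68.4 and 65.1 with PPCL-68 vesicles. Against untreated the vesicle differences were 1.30 and 1.72 (adjusted p 0.000312 and 1.42e-05). Against residual medium they were 0.47 and 0.88, and the first of these was lost when any 1 of 7 libraries was left out (adjusted p 0.0515 to 0.145), with size factors (0.0895), without the filter (0.108) and with the 6 libraries fitted alone (0.08). SLC2A3 went from 28.1% of the summed FPKM of the 2 glucose transporters in untreated HPNE to 40.8% and 49.5% with vesicles. In HPDE it was low, 1.65 ± 0.127 FPKM with residual medium and 3.39 ± 0.0349 with PPCL-68 vesicles (log2 difference 0.73, SE 0.07, adjusted p 6.42e-07). SLC16A3, which exports lactate, had 56.8, 56.5 and 68.6 FPKM in untreated HPNE, 137, 138 and 169.8 with residual medium, 70.1, 96.1 and 113 with PANC-1 vesicles and 115, 93.1 and 104 with PPCL-68 vesicles. It fell against residual medium by 0.68 (adjusted p 0.014; 0.39 without the 4 libraries that stand apart) and by 0.50 (adjusted p 0.0329), the first lost with the 6 libraries fitted alone (0.0598) and the second when any 1 of 5 libraries was left out (adjusted p 0.0544 to 0.112). No transporter was called between residual medium and untreated in HPDE by limma, none had an unadjusted p below 0.05, and voom called none. SLC16A3 there did not pass the test with either vesicle type against residual medium.

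All 3 flux regulators rose with residual medium in HPNE, where 18.7% of all genes rose. Against it all 3 fell with both vesicle types (10.3% of all genes fell with PANC-1 and 19.7% with PPCL-68 vesicles). None was called between either vesicle type and untreated HPNE cells. PDK1 (ENSG00000152256; chromosome 2, 173420101 to 173489823) encodes a kinase that shuts pyruvate out of mitochondrial oxidation. It had 5.004, 4.29 and 5.34 FPKM in untreated HPNE and 12.2, 12.5 and 14.5 with residual medium (log2 difference 1.26, SE 0.16, adjusted p 0.000333, limma). With vesicles it fell to 7.29, 5.36 and 3.97 (PANC-1) and 3.97, 3.22 and 3.07 (PPCL-68), differences of -1.13 and -1.67. The residual medium libraries did not overlap any other HPNE library. In HPDE it had 4.54, 4.85 and 5.07 FPKM with residual medium and rose to 7.300, 6.74 and 6.06 with PANC-1 vesicles (log2 difference 0.40, SE 0.08, adjusted p 0.000313), while PPCL-68 vesicles gave 4.699, 5.102 and 5.09 (adjusted p 0.685). PFKFB4, which sets the level of the phosphofructokinase activator fructose bisphosphate, rose in HPNE from 9.74, 10.6 and 12.5 to 18.1, 17.5 and 27.3 FPKM and fell with both vesicle types, each by 1.16 on the log2 scale. In HPDE it reached at most 3.24 FPKM in a library and fell with PANC-1 vesicles (-0.51, adjusted p 0.00155). PFKFB3, of the same enzyme family, had means of 13.1, 17.8, 10.9 and 11.4 FPKM in untreated, residual medium, PANC-1 vesicles and PPCL-68 vesicles in HPNE. Its rise with residual medium was lost when any 1 of 5 libraries was left out in HPNE (adjusted p 0.0581 to 0.138) and 5 in HPDE (0.0527 to 0.125).

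Among the other HIF targets in HPNE 5 of 11 tested rose with residual medium and none fell (18.7% and 25.2% of all genes). The median was 0.36, or 0.21 without residual medium replicate 3. Against residual medium 4 fell with PANC-1 vesicles (10.3% of all genes) and 5 with PPCL-68 vesicles (19.7%), and none rose (13.9% and 20.3%). Medians were -0.59 and -0.66, the first -0.20 without residual medium replicate 3. The number called lay near the share of all genes with residual medium (43.9%) and PPCL-68 vesicles (39.9%), with all calls in the same direction. These counts turn on the 4 libraries that stand apart. Without them 6 rose and 4 fell with residual medium (71.7% of all genes called). With PANC-1 vesicles none rose and 7 fell (59.1%), and with PPCL-68 vesicles 3 rose and 7 fell (65.7%). BNIP3 (ENSG00000176171; chromosome 10, 133781578 to 133795435), a receptor for the removal of mitochondria, was among them. It had 81.1, 76.4 and 71.4 FPKM untreated, 181, 181 and 221 with residual medium, 105, 79.3 and 66.5 with PANC-1 vesicles and 94.5, 68.8 and 67.03 with PPCL-68 vesicles. The residual medium group was above all other HPNE libraries, with log2 differences of 1.33 to untreated and, for the vesicles, -1.23 and -1.34 to residual medium (limma adjusted p 0.000321, 0.00103 and 0.000262). P4HA1 and P4HA2, subunits of the enzyme that hydroxylates collagen, also rose with residual medium (log2 differences 0.87 and 0.79) and fell with PANC-1 vesicles (-0.81 and -0.77) and PPCL-68 vesicles (-1.10 and -0.66). The P4HA1 call with PANC-1 vesicles was lost without PANC-1 vesicle replicate 2 (adjusted p 0.0608) or 3 (0.0692) and without the filter (0.0624). EGLN1, the prolyl hydroxylase that marks HIF-alpha, rose from 10.7 ± 0.897 to 16.8 ± 2.83 FPKM (log2 difference 0.60, SE 0.18, adjusted p 0.0187), a call lost without untreated replicate 3 (adjusted p 0.0514). It fell by 0.80 and 0.69 with the vesicles. CA12 fell with PPCL-68 vesicles by 0.91 (adjusted p 0.00702) and differed by -0.15 with PANC-1 vesicles. KDM3A and ANKRD37 stayed below 7 FPKM in every HPNE library and did not pass the test.

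ADM rose with residual medium in HPNE and, unlike most enzymes, was not called lower with vesicles. It had 83.7, 85.6 and 85.5 FPKM untreated, 146, 142 and 314 with residual medium, 133, 116 and 124 with PANC-1 vesicles and 338, 179 and 199 with PPCL-68 vesicles. The library that stands apart was the highest of its group in each of the 3 treated groups, and without the 4 such libraries the differences were 0.76 for residual medium against untreated, -0.26 and 0.39 for PANC-1 and PPCL-68 vesicles against residual medium (adjusted p 1.21e-06, 0.0033 and 0.000223), where all libraries gave 1.13, -0.59 and 0.29 (0.0105, 0.154 and 0.452). NDRG1, a stress-response gene, turned on the same libraries. It had 51.6, 50.4 and 35.6 FPKM untreated, 31.4, 30.3 and 78.03 with residual medium, 45.3, 22.3 and 20.7 with PANC-1 vesicles and 28.1, 17.2 and 18.3 with PPCL-68 vesicles. Over all libraries none of these passed the test against residual medium (-0.59 and -0.99, adjusted p 0.26 and 0.0558), nor did residual medium against untreated (-0.10, adjusted p 0.838). Without the 4 libraries residual medium was lower than untreated (-0.71, adjusted p 1.32e-06), the opposite of LDHA (1.23) in the same fit. BNIP3L, a close relative of BNIP3, had 90.8, 84.5 and 59.8 FPKM untreated and 52.1, 49.8 and 103 with residual medium, and the groups overlapped. BHLHE40, a clock-linked repressor, had 44.1, 45.9 and 23.4 FPKM untreated and 26.1, 28.8 and 44.3 with residual medium. In both genes untreated replicate 3 was the lowest of its group and residual medium replicate 3 the highest, and neither passed the test. Without the 4 libraries they differed by -0.77 and -0.69 (adjusted p 1.52e-05 and 1.83e-06).

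In HPDE the counts of other HIF targets called with vesicles against residual medium lay near the shares of all genes, apart from the rises with PPCL-68 vesicles. With PANC-1 vesicles 4 of 12 rose and 5 fell against residual medium (28.2% and 35.1% of all genes), and with PPCL-68 vesicles 6 rose and 4 fell (31.3% and 36.4%), with medians of -0.07 and 0.14 (the latter 0.09 without PPCL-68 vesicle replicate 3). With residual medium 6 of 12 had risen and CA12 had fallen against untreated, above the share of all genes for the rises (9.93% higher, 10.1% lower). NDRG1 rose most, from 17.6, 20.1 and 18.4 FPKM untreated and 28.9, 22.5 and 24.7 with residual medium to 38.8, 37.9 and 38.3 with PANC-1 vesicles and 60.3, 69.8 and 73.9 with PPCL-68 vesicles. The 4 groups did not overlap, and the differences from residual medium were 0.58 (SE 0.08, adjusted p 2.76e-05) and 1.39 (adjusted p 2.69e-09). ADM rose in the same order, with 6.72, 8.37 and 8.17, then 9.79, 9.27 and 9.71, then 13.9, 13.4 and 13.1 and 17.9, 18.6 and 17.7 FPKM, by 0.45 and 0.85 against residual medium. BNIP3L did not pass the test against residual medium. KDM3A, a histone demethylase, rose by 0.33 and 0.55. BNIP3 instead fell with the enzymes, from 79.9, 77.6 and 79.9 FPKM with residual medium to 52.1, 58.8 and 57.2 with PANC-1 vesicles and 49.7, 52.9 and 53.3 with PPCL-68 vesicles (log2 differences -0.49 and -0.60, adjusted p 1.8e-06 and 1.66e-07), against 57.3, 58.1 and 52.2 in untreated cells. CA12, a membrane carbonic anhydrase, fell by 0.37 with residual medium against untreated, and by a further 0.37 and 0.38 with the vesicles. P4HA2 rose with PPCL-68 vesicles (0.36) and P4HA1 fell (-0.22), so the collagen hydroxylase subunits went opposite ways. ANKRD37, at 0.712 to 1.98 FPKM in HPDE, and BHLHE40 gave calls with adjusted p of 0.0266 to 0.0452. The ANKRD37 calls were lost when any 1 of 3 and of 5 libraries was left out (adjusted p 0.0562 to 0.147 and 0.0503 to 0.231), and the BHLHE40 calls for 6 and 5 libraries (0.0537 to 0.18 and 0.0611 to 0.207).

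EGLN3, the prolyl hydroxylase whose gene is itself a strong HIF target, passed the filter on low values in HPDE and not in HPNE. HPDE libraries had 1.501, 1.39 and 1.36 FPKM untreated, 1.91, 1.996 and 1.905 with residual medium, 1.16, 1.18 and 1.34 with PANC-1 vesicles and 1.13, 1.06 and 1.08 with PPCL-68 vesicles. It fell with both vesicle types against residual medium (-0.40 and -0.49, limma adjusted p 0.000282 and 3.3e-05). Its rise with residual medium (0.28) was lost without untreated replicate 2 (adjusted p 0.0501) or 3 (0.0583). In HPNE no library had more than 7 EGLN3 reads. CA9, a carbonic anhydrase used as a hypoxia marker in tumours, was below the filter in both lines and has no test. HPNE libraries held 7, 0 and 0 CA9 reads untreated, 14, 3 and 48 with residual medium, 5, 0 and 0 with PANC-1 vesicles and 3, 1 and 0 with PPCL-68 vesicles. The largest of these was in residual medium replicate 3, a library that stands apart. HPDE libraries held 44, 58 and 51 untreated, 59, 48 and 48 with residual medium, 40, 52 and 32 with PANC-1 vesicles and 6, 30 and 24 with PPCL-68 vesicles.

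HIF1A (ENSG00000100644; chromosome 14, 62162231 to 62214976) encodes the oxygen-controlled HIF subunit. In HPNE its RNA rose with residual medium, from 204, 209 and 294 FPKM to 374, 363 and 353 (log2 difference 0.64, SE 0.16, adjusted p 0.00938, limma), and stayed high with vesicles at 343, 399 and 430.5 (PANC-1) and 336, 433 and 450.4 (PPCL-68). Vesicle and residual medium groups overlapped, with differences of 0.10 and 0.15 that did not pass the test. Without the 4 libraries they were 0.17 and 0.26 and passed it (limma adjusted p 0.0169 and 0.00134), in a fit whose spread is narrowed by construction. In HPDE HIF1A had 86.4, 81.4 and 77.2 FPKM untreated, 71.4, 75.8 and 74.1 with residual medium, 137, 134 and 136 with PANC-1 vesicles and 99.5, 93.8 and 103 with PPCL-68 vesicles. It rose with both vesicle types against residual medium, by 0.87 and 0.42 (limma adjusted p 2.1e-09 and 2.73e-06). In the same libraries LDHA, PGK1 and BNIP3 fell, while NDRG1, ADM, KDM3A and SLC2A1 rose. Of 12 other HIF targets 4 rose and 5 fell with PANC-1 vesicles (28.2% and 35.1% of all genes). With PPCL-68 vesicles 6 rose and 4 fell (31.3% and 36.4%).

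**Figure D3:**
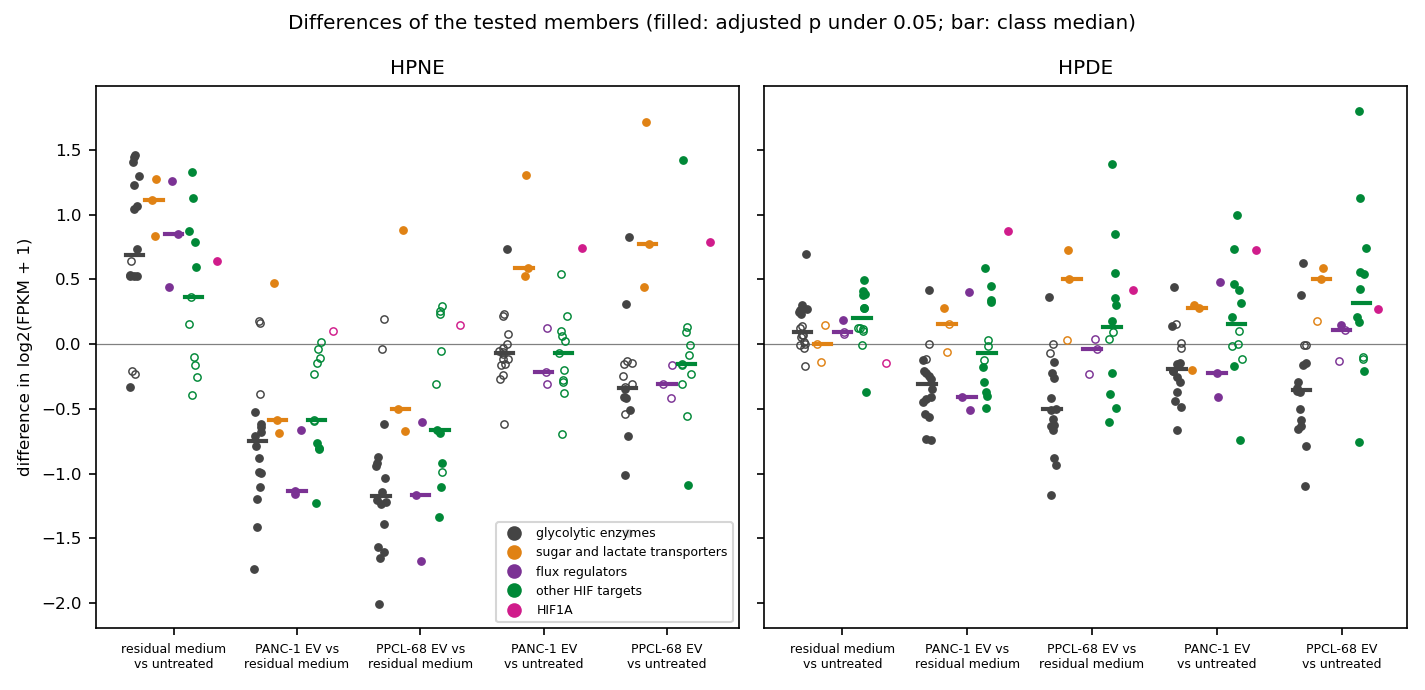
Log2 differences of the tested members in each comparison, by class (columns of points) and line; a filled point passed the limma test (adjusted p below 0.05), an open one did not, and the bar is the class median. In HPNE every class median lies above 0 for residual medium against untreated and, apart from HIF1A, below 0 for vesicles against residual medium; in HPDE the enzyme median lies below 0 with vesicles and the transporter median above.

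The 2 vesicle types were also set against each other. In HPNE 4 members, the enzymes HK1, PKM, PGK1 and PFKL, were higher with PANC-1 vesicles than with PPCL-68 vesicles and none was lower (5.47% of genes, 3.22% higher and 2.25% lower). By limma no member outside the enzymes was called, with unadjusted p below 0.05 for 1 transporter, 1 flux regulator and 2 other HIF targets, and none of these called by voom. Without the 4 libraries that stand apart 18 members were higher and 5 lower (36.5% of genes), and without the filter, or with the 6 libraries fitted alone, 1 was called. The count was 0 without PANC-1 vesicle replicate 1 or 2 or PPCL-68 vesicle replicate 2 or 3, 2 without untreated or residual medium replicate 1 or 2, and 7 without residual medium replicate 3. In HPDE 13 were higher and 11 lower with PANC-1 vesicles (50.1% of genes, 25.2% and 24.9%). The enzymes were higher with PANC-1 vesicles for 11 of 16 and lower for GAPDH and ENO2, and 6 of the 12 other HIF targets were lower and none higher. PKM was higher with PANC-1 vesicles than with PPCL-68 vesicles in both lines, by 0.56 in HPNE and 0.43 in HPDE (limma adjusted p 0.021 and 6.63e-06). NDRG1 was lower with PANC-1 vesicles in HPDE by 0.81 (adjusted p 2.65e-06), and HIF1A higher by 0.45 (adjusted p 3.58e-06).

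Whether the lines responded differently was tested as the difference of differences, HPDE minus HPNE. For residual medium against untreated the members differed by line in 24 of 34 cases, 23 of them with a lower difference in HPDE and 1 with a higher one (38.1% of 10483 genes, 18.7% lower and 19.4% higher). For PANC-1 vesicles against residual medium 16 were higher in HPDE and 1 lower (18.2%, 7.51% higher and 10.7% lower), and for PPCL-68 vesicles 21 and 1 (23.0%, 11.4% and 11.6%). The HPNE residual medium libraries enter all 3 of these tests. LDHA rose less with residual medium in HPDE than in HPNE, by -1.02 (SE 0.20, adjusted p 0.000673), and its fall with PPCL-68 vesicles was smaller by 0.68 (adjusted p 0.0166). For PKM the line differences with the vesicle types were -0.05 (SE 0.12) and 0.08, neither past the threshold. NDRG1 and ENO2 showed the largest line differences with PPCL-68 vesicles, 2.38 and 1.94 (adjusted p 0.000317 and 8.49e-05), followed by PDK1 (1.71). SLC2A1 went down in one line and up in the other with both vesicle types, with line differences of 0.87 and 1.18 (adjusted p 0.000229 and 5.26e-06). The negative line differences past the threshold were those of SLC2A3 with PANC-1 vesicles (-0.53) and PFKM with PPCL-68 vesicles (-0.45). Without the 4 HPNE libraries that stand apart, 26 members differed by line with PANC-1 vesicles (25 higher, 1 lower; 46.7% of genes), and for residual medium 7 were higher and 26 lower (64.6%).

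**Figure D4:**
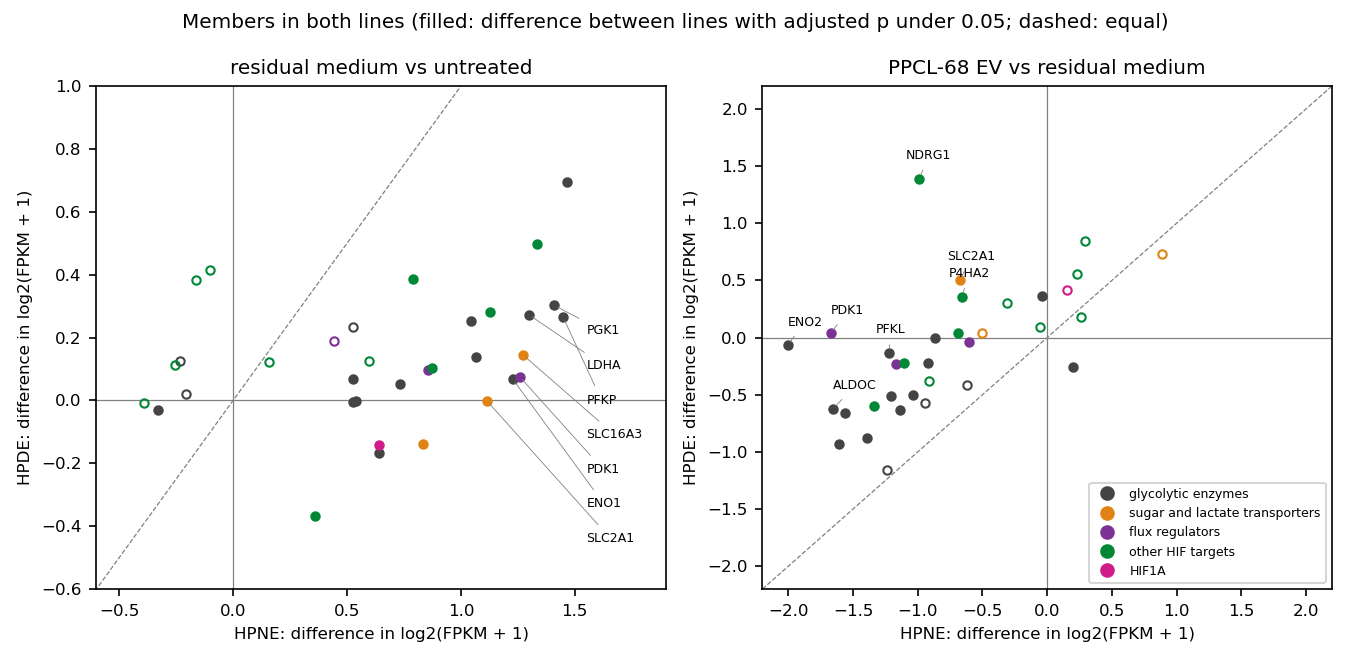
Log2 difference of each tested member in HPNE (horizontal) and HPDE (vertical) for residual medium against untreated (left) and PPCL-68 vesicles against residual medium (right); filled points have a line difference with adjusted p below 0.05, names are given where it was at least 1 in size, and the dashed line marks equal differences. With residual medium the members reach 1.46 in HPNE and 0.69 in HPDE (ENO2 in each), and with PPCL-68 vesicles most lie above the dashed line, NDRG1 furthest (-0.99 in HPNE and 1.39 in HPDE).

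Genes around the list were counted from 58 further names, 48 of them tested in HPNE and 45 in HPDE. Of 18 other hypoxia-induced genes 7 rose and none fell with residual medium in HPNE (median 0.46), where 18.7% of all genes rose and 25.2% fell. Against residual medium 1 rose and 6 fell with PANC-1 vesicles (13.9% and 10.3% of all genes), and 3 rose and 7 fell with PPCL-68 vesicles (20.3% and 19.7%). Of 15 tested in HPDE 7 rose and 6 fell with PANC-1 vesicles (28.2% and 35.1% of all genes). With PPCL-68 vesicles 9 rose and 5 fell there (31.3% and 36.4%). AK4, a mitochondrial adenylate kinase, rose with residual medium (1.42) and fell with the vesicles (-1.70 and -1.81). VEGFA, the vessel growth factor, differed by 0.63 and 0.46 in HPNE, neither past the threshold, and rose in HPDE by 1.52 and 1.08 (limma adjusted p 1.83e-09 and 3.94e-08). Its HPNE values were 30.0, 31.3 and 15.9 FPKM untreated and 16.1, 16.5 and 27.8 with residual medium. They were 38.3, 27.6 and 27.5 with PANC-1 vesicles and 34.1, 23.6 and 25.1 with PPCL-68 vesicles. The library that stands apart was the highest of each treated group and the lowest of the untreated group. Residual medium replicates 1 and 2 lay below every vesicle library. EPAS1, which encodes the other main HIF-alpha, fell in HPNE with residual medium (-1.30) and rose with the vesicles (1.26 and 1.05). Of the 7 pentose phosphate genes, which branch off glycolysis to make NADPH, none rose and 4 fell with residual medium in HPNE (median -0.37). In HPDE 2 rose and 5 fell with PANC-1 vesicles (28.2% and 35.1% of all genes), and 2 rose and 4 fell with PPCL-68 vesicles (31.3% and 36.4%). TKT, transketolase, fell with residual medium in HPNE by 1.16 while the enzymes of glycolysis rose.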

How the data were processed

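RNA from 24 cultures was sequenced with a kit that keeps no strand, per the labels' protocols. The authors deposited 1 table of FPKM per library; per the submitters' processing notes, CASAVA, STAR, HTSeq, DESeq2 and hg19 were used, with versions not given in the sources used here. Groups came from the labels. The low values were whole multiples of 1 read (all within a tolerance of 0.01), so reads and depths were recovered.

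Log2(FPKM + 1) was fitted with limma 3.58.1 in R 4.3.3 with empirical Bayes variances that follow the mean, over the 12 libraries of a line in 4 groups (8 residual degrees of freedom), or over all 24 (16) for the lines, with genes of mean FPKM at least 1, Benjamini-Hochberg adjustment over all genes of each of the 16 comparisons, and a threshold of 0.05. The fit was also run on simulated data, in which noise was drawn for each gene and library separately. That setting held no library that stands apart over all genes, and no conclusion is drawn from it here. Values in every library are given for HIF1A, SLC2A1, HK2, LDHA, PGK1, PDK1, CA9, NDRG1, ADM and EGLN3 and for members past the threshold, without overlap and with a log2 difference of at least 1; others were chosen after their values were seen. Replicate numbers shared by the groups met the check for pairing (every correlation of same-numbered deviations above 0.1) for the PANC-1 and PPCL-68 vesicle groups of HPNE and for no other pair of groups, a hint from the data and not from the labels. The members and lists were chosen with earlier results of these data known. Alternatives were a pseudocount of 0.1, no filter, size factors, voom on recovered reads, the replicate number as a block, the 6 compared libraries alone, the 4 HPNE libraries left out, and each library left out. Promoter windows came from RefSeq (GRCh38.p14), another build than the tables, and none of their coordinates was set against the files. A count of 0 reads allows up to 3, and this limit covers counting error only. PECAM1 was not analysed here.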

Additional observations from a re-analysis of the deposited data

Results flagged for a closer look

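Results here were picked out because the response of a gene differed between the lines by at least 1 on the log2 scale (HPDE minus HPNE, limma, adjusted p below 0.05) or because they count such genes. The HPNE residual medium libraries enter all of them, so the 3 sets are not independent of each other.

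For residual medium against untreated cells 24 of 34 members differed by line, as did 38.1% of all genes. The enzymes PFKP, PGK1, ENO1 and LDHA had line differences of -1.18, -1.11, -1.16 and -1.02. The transporters SLC2A1 and SLC16A3 had -1.11 and -1.13, and PDK1 had -1.18. All 7 rose in HPNE, and in HPDE PFKP, PGK1 and LDHA rose by 0.27, 0.30 and 0.27 while the other 4 did not pass the test.

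For PANC-1 vesicles against residual medium 17 of 34 members differed by line, as did 18.2% of all genes. ENO2 had a line difference of 1.20, PDK1 of 1.53 and ADM of 1.04. ENO2 fell in both lines, PDK1 fell in HPNE and rose in HPDE, and ADM rose in HPDE. In HPNE the ADM difference was not called. Its residual medium values there were 146, 142 and 314 FPKM, the last in a library that stands apart, and its line difference turns on that library.

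For PPCL-68 vesicles against residual medium 22 of 34 members differed by line, as did 23.0% of all genes. NDRG1 had 2.38, ENO2 1.94, PDK1 1.71, SLC2A1 1.18, PFKL 1.09, ALDOC 1.03 and P4HA2 1.02. SLC2A1 and P4HA2 fell in HPNE and rose in HPDE. NDRG1 rose in HPDE and was not called in HPNE. Its residual medium values in HPNE were 31.4, 30.3 and 78.03 FPKM, the last in a library that stands apart. PFKL and ALDOC fell in both lines, but the fall of PFKL in HPDE was small (-0.13). That call was lost with size factors and when any 1 of 8 libraries was left out.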

How the results depend on the processing

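Of 142 calls of single members in the 6 comparisons against residual medium or of it against untreated cells, none was lost with a pseudocount of 0.1 or by voom, 16 were lost without the filter, 5 with size factors and 7 with the 6 compared libraries alone. Leaving out single libraries lost 71 and kept 1633 such calls, the losses in 16 pairs of gene and comparison. Without the 4 HPNE libraries that stand apart none of 73 was lost. No call of a single member changed sign, but splits of the counts against untreated cells turned. With PANC-1 vesicles HPDE went from 12 higher and 16 lower to 14 and 12 with size factors. HPNE went there from 5 and 0 to 8 and 15 without the 4 libraries. With PPCL-68 vesicles HPNE went from 7 and 8 to 6 and 5 without the filter, and to 7 and 7 with size factors.

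Counts of members called moved by over 1.5 times in 4 comparisons. For HPNE PANC-1 vesicles against untreated the count was 5 (21.1% of all genes called), and 23 without the 4 libraries (62.7%). For PPCL-68 vesicles against untreated it was 15 (42.5%) and 31 (69.6%). For PANC-1 vesicles against PPCL-68 vesicles it was 4 (5.47%), and 23 without the 4 libraries (36.5%). There it was 1 without the filter (1.16%) and 1 with the 6 libraries alone (2.81%). For the line difference with PANC-1 vesicles it was 17 and 26. Leaving out 1 library gave 3 to 7, 9 to 22, 0 to 7 and 13 to 22 for these; the 0 came without PANC-1 vesicle replicate 1 or 2 or PPCL-68 vesicle replicate 2 or 3. The cause was not tested.

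Deviations of same-numbered libraries correlated by 0.027 on average in HPNE (-0.513 to 0.565, 9 of 18 above 0.1) and -0.041 in HPDE. The numbers met the check only for the HPNE vesicle groups, with 0.565, 0.292 and 0.4997 for replicates 1 to 3. Replicate 1 stands apart in both of these groups. Deviations within a group sum to 0, so the 3 values are not independent of each other. The block gave 4 higher and 0 lower between these groups, as without it. With the number as a block, 139 of the 142 calls remained (lost were ALDOC with PANC-1 vesicles in HPNE, BHLHE40 with PANC-1 vesicles and PFKL with PPCL-68 vesicles in HPDE, limma adjusted p 0.0532, 0.0534 and 0.055), and the counts were 1 higher and 21 lower for PANC-1 vesicles and 1 and 24 for PPCL-68 vesicles in HPNE, and 8 and 19, and 10 and 16, in HPDE.

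Size factors moved the all-gene median of residual medium against untreated in HPNE from -0.05 to 0.06; members are read relative to it. CA9 in both lines and EGLN3 in HPNE were too shallow to test.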
